A study of Caenorhabditis elegans with 2 samples.

Results

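The genes for splicing factors and related RNA-binding proteins are described here for where a tagged zinc finger protein, ZTF-4, was recovered on their DNA. They were chosen by name among the 19985 protein-coding genes of the C. elegans annotation. Names starting with rsp-, snr-, hrp, uaf-, prp-, rbm-, sftb- or sfa- were taken, with fust-1 and spk-1, which gave 59 genes. There was 1 group of 2 biological replicates, each of whole third-stage (L3) larvae of pooled sexes from strain OP322, genotype unc-119(ed3) III; wgIs322. All animals therefore carried the unc-119 mutation and an integrated transgene for ZTF-4 fused to eGFP, and the promoter driving it is not stated in the labels. No untagged or wild-type group was analysed here, so nothing below is a difference between genotypes. DNA came from all cells of the animal, so strong binding in few cells and weak binding in many cannot be told apart.

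Each list held regions with a signal value, the authors' own measure of enrichment, and a summit, the point within it that the authors marked as the peak. Candidates, weak ones included, numbered 29249 in replicate 1, 30000 in replicate 2 and 30000 in the list from both replicates (pooled). The thresholded list (IDR, irreproducible discovery rate) held 704 regions with signals of 35.9 or more. Signals of different lists are not known to share a scale, so ranks within a list are given beside them. Read numbers were not in the lists, and the depth behind a region is unknown.

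Splicing removes introns from pre-mRNA on the spliceosome, which is built from small nuclear RNAs, the Sm proteins that form a ring on them, and many further proteins. SR proteins bind exons and help the spliceosome choose splice sites, SRPK kinases phosphorylate them, and hnRNP proteins bind nascent RNA and often act against SR proteins. The U2AF subunits, SF1 and the SF3 complex recognise the end of the intron and its branch point. In C. elegans many mRNAs are also joined to a short leader RNA by trans-splicing, and for those the annotation may begin where the leader was joined rather than where transcription starts.

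ZTF-4 IDR summits lay within 500 bp of the 5' end of 9 of the 59 genes, at 8 separate regions, and inside an intron of 2. The 9 genes were fust-1, spk-1, hrpk-1, rbm-39, prp-40, rsp-1, rsp-2, snr-4 and hrpu-1, and the intron summits were in hrpk-1 and rbm-34. The sequences around 8 of these 9 regions are shown because they are DNA under the IDR summits of these genes, and the hrpk-1 region is described by its values only. Each run covers 75 bp to either side of the summit in the ce11 (WBcel235) assembly, read from RefSeq on the strand of the named gene (of rsp-1 for the shared region). Capitals mark GACGCA or its reverse complement TGCGTC, the leading 6-base word in an earlier analysis of these same lists.

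fust-1, chrII:7152090-7152240, plus strand: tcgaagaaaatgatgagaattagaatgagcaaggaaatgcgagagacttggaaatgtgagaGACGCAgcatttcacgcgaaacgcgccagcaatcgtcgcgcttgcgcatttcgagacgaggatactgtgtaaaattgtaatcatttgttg
rsp-1 and rsp-2, chrII:11453114-11453264, plus strand: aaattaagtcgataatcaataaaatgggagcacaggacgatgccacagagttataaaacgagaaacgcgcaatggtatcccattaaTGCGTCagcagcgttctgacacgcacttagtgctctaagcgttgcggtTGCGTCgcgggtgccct
prp-40, chrIII:9521816-9521966, plus strand: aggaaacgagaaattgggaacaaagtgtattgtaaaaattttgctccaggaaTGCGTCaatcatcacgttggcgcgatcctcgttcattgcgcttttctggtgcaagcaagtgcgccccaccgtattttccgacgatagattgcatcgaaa
hrpu-1, chrIV:15039481-15039631, plus strand: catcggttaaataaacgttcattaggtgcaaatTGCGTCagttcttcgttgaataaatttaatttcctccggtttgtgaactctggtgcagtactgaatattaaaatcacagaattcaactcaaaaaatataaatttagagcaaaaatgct
spk-1, chrIII:9456236-9456386, plus strand: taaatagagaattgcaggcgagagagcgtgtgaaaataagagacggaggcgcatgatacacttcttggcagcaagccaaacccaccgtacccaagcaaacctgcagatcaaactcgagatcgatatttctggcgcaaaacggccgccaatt
rbm-39, chrIV:1012500-1012650, plus strand: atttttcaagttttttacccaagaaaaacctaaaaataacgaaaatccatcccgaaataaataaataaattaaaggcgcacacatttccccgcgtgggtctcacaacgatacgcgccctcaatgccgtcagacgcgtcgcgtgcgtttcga
snr-4, chrV:11980006-11980156, minus strand: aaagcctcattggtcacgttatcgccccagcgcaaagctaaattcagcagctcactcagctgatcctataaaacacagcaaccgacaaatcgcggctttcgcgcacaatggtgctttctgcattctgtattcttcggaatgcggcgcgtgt
rbm-34 intron, chrIV:12086711-12086861, plus strand: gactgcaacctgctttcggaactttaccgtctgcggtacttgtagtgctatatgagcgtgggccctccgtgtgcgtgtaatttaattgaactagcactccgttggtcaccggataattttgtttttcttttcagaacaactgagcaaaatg

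Within these 151 bp windows the word stood 2 times in the region shared by rsp-1 and rsp-2 and 1 time each at fust-1, prp-40 and hrpu-1. The windows of spk-1, rbm-39, snr-4 and the rbm-34 intron held no match. In wider windows of 100 bp to either side of the summit, on both strands, 5 of the 8 regions at 5' ends held the word (62.5%). The same was true of 31.2% of the 263 nuclear IDR summits near protein-coding 5' ends and of 9.05% of the 6494 pooled candidates there. Among the 56 pooled candidate regions at the 59 genes' 5' ends the share was 25%. Since the word was chosen on these lists, these shares are a description and were not tested.

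Another 4 words were searched in the same windows, and of these GAGAGA can overlap the start of GACGCA by its last bases. GAGAGA was within 100 bp of 3 of the 8 summits (37.5%, against 33.1% of IDR summits near 5' ends) and CCGCCC of 0 of 8 (against 10.3%). TATAAA was there at 3 of 8 (37.5%, against 13.3%), and TTTCAG at 2 of 8 (25%, against 17.9%). These shares rest on 8 regions and were not tested. The median G and C content of the windows was 44.8% at the 8 regions, close to the 43.8% of all IDR summits near 5' ends, and 39.6% at the 56 candidates against 35.3% of all candidates near 5' ends.

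Set beside all protein-coding genes, the 59 genes had summits at their 5' ends at larger shares in each of the lists. The IDR count of 9 was 15.3% of the 59 (Wilson 95% interval 8.24 to 26.5), against 1.72% of all 19985. Of these 9, fust-1 and spk-1, with the strongest regions (63.4 and 48.7), entered the set by single name and not by prefix. Members were chosen with earlier results of these data known, so this share is a description that the choice may have raised. A pooled candidate lay within 500 bp at 49 of 59 (83.1%, interval 71.5 to 90.5), against 28.6% of all genes. The pooled list is labelled as peaks and background, so a candidate alone does not show binding. At the 49 genes its deposited −log10 q ran from 0.154 (uaf-1) to the ceiling of 3.15. At that ceiling stood 14 of the 49 (28.6%), against 15.4% of the 5719 genes with a candidate in all. In replicate 1 alone 43 genes had a candidate within 500 bp (72.9%, against 29.4%), and in replicate 2 alone 44 (74.6%, against 29%). Counting only the 49 genes with a pooled candidate, 9 had an IDR summit (18.4%, interval 9.98 to 31.4), against 6% of the 5719 such genes in all. Within 250 bp the pooled count fell to 29 (49.2%, against 17.9% of all genes). Wilson intervals cover counting error over genes only. No test of these differences was made, and how far these genes' level of transcription moves with the counts was not tested.

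**Figure D1:**
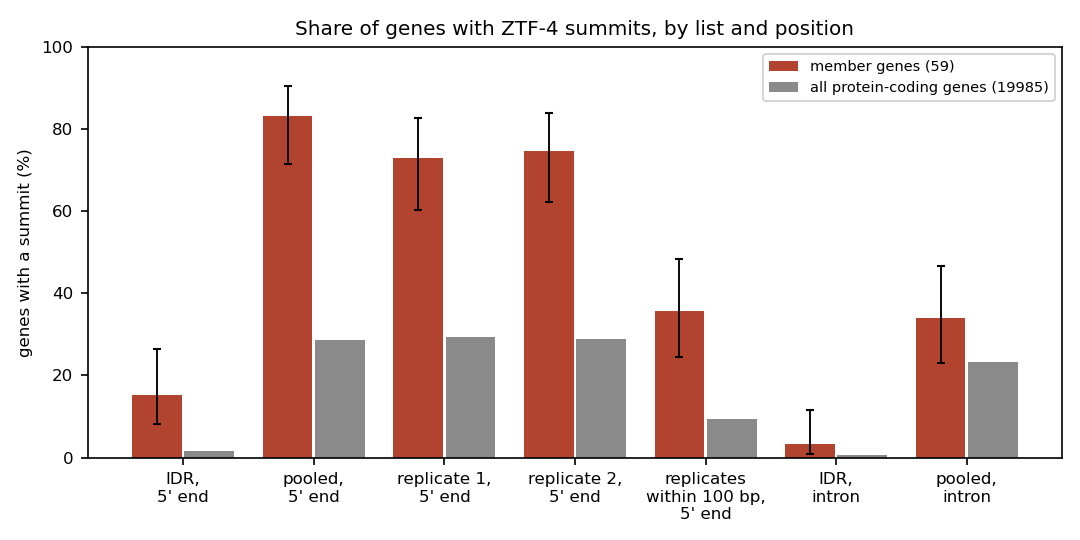
The bars give the share of genes (%) with a summit in each list, at the 5' end (within 500 bp) or in an intron, for the 59 genes in red and all 19985 protein-coding genes in grey; error bars are Wilson 95% intervals over the 59. At the 5' end the pooled share is 83.1% against 28.6%, and in introns 33.9% against 23.4%.

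Other gene families gave both higher and lower counts of IDR summits near 5' ends. Splicing factor and RNA-binding protein genes stood at 15.3%, against 36.2% of 47 rpl- genes for large subunit ribosomal proteins, 3.03% of 33 proteasome genes and 1.86% of 269 nuclear hormone receptor genes. Pooled candidates were at 83.1% of the 59 genes, 85.1% of the rpl- genes, 72.7% of the proteasome genes and 35.7% of the receptor genes. Differences between these families were not tested.

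**Figure D2:**
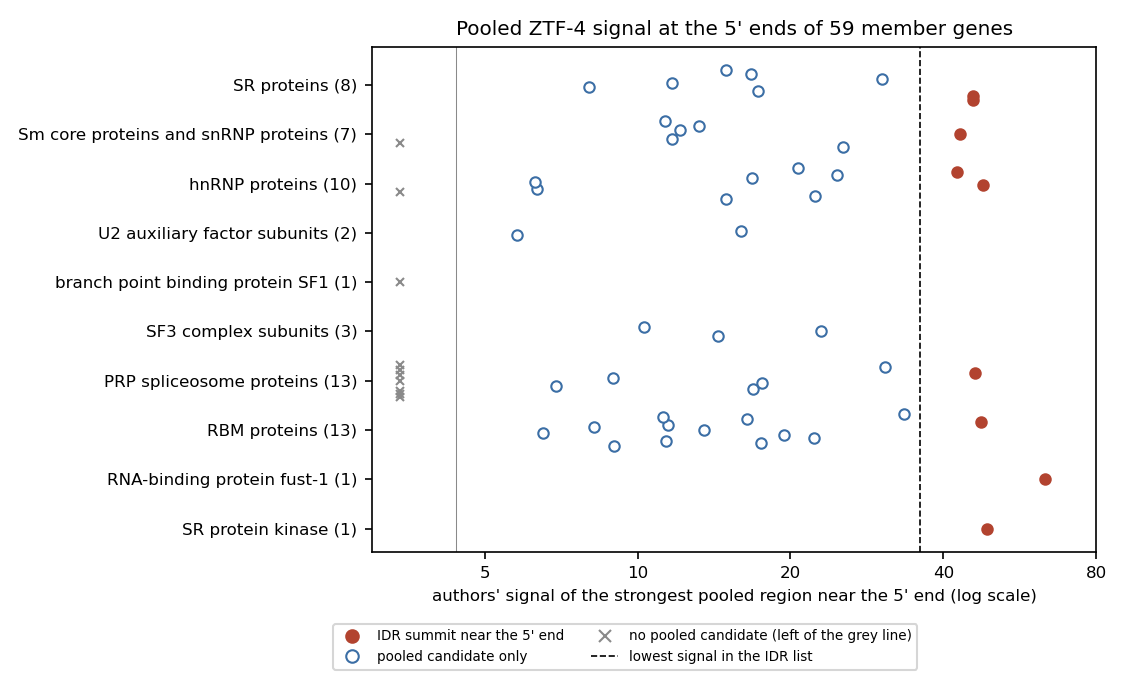
Each point is 1 of the 59 genes, placed by the signal of its strongest pooled region within 500 bp of the 5' end (log scale) and grouped by role, with the number of genes in brackets. The 9 genes with an IDR summit lie between 42.6 and 63.4, right of the dashed line at 35.9, the lowest IDR signal, and 10 genes have no pooled candidate.

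The SR protein genes all had a pooled candidate, 8 of 8, with a median signal of 17.0 and a lowest value of 8.04 at rsp-4. The strongest region served a pair of them at once. It spanned 11453004 to 11453373 on chromosome II. The summit lay in the 406 bp between rsp-1 and rsp-2, which are transcribed away from each other, 173 bp upstream of rsp-1 and 234 bp upstream of rsp-2 (signal 45.8). In replicate 1 this region had signal 16.3 (rank 466) and in replicate 2 signal 29.7 (rank 554), with summits 44 bp apart, so both replicates held it among their strongest regions. A second such pair was rsp-5 and snr-3, the gene for the Sm protein SmD1, which also face away from each other and shared a candidate of signal 11.7. The next SR protein gene was rsp-6, with its summit 188 bp upstream (signal 30.3, replicate ranks 3175 and 2837), followed by rsp-3, the SRSF1 homologue, at 174 bp upstream (17.3). The replicates placed rsp-3 very differently, at rank 1967 in replicate 1 and 17575 in replicate 2, although the summits were 4 bp apart. In rsp-8, related to the splicing regulator Tra2, replicate 1 had its lowest pair member of all, at rank 29108, against 6848 in replicate 2.

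The SR protein kinase gene spk-1 had the second strongest region at a 5' end, at 9456126 to 9456495 on chromosome III. Its summit lay 297 bp upstream of spk-1 and 281 bp upstream of rheb-1, a small GTPase gene on the other strand (signal 48.7). Replicate 1 gave signal 11.3 (rank 1218) and replicate 2 gave 36.9 (rank 280). Because the summit stood between 2 start sites at about the same distance, it cannot be given to spk-1 alone. The gene also had 4 pooled candidates in introns, the strongest of signal 18.1.

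Of the 7 Sm protein genes, 6 had a pooled candidate and 1, snr-4 for SmD2, had an IDR summit. Its region lay at 11979896 to 11980265 on chromosome V, with the summit 358 bp upstream of snr-4 (signal 43.1). Replicate 1 gave signal 11 (rank 1332) and replicate 2 gave 32.4 (rank 431), with summits 7 bp apart. The same summit was 37 bp upstream of the small nuclear RNA gene T11F9.15 and inside the 143 bp non-coding RNA gene C52E4.14, both on the strand opposite to snr-4, and so much nearer to RNA genes than to the Sm gene. After snr-4 came snr-1 (SmD3) at 391 bp upstream with signal 25.4, which replicate 2 ranked 762. Replicate 1 had no summit upstream of snr-1, and its only one near that 5' end was 383 bp downstream (rank 10597). The other 4 Sm genes with a candidate, snr-3, snr-5, snr-6 and snr-7, had signals of 11.3 to 13.2, and snr-2 for SmB had a summit in replicate 1 only (rank 12517).

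Genes for the factors that recognise the branch point and the end of the intron had no IDR summit, and their candidates differed widely in signal. For the U2AF subunits, uaf-2 had signal 16.0 at 227 bp upstream and uaf-1 had 5.80 at 273 bp upstream, among the lowest of the pooled list. Near the 5' end of uaf-1 replicate 1 had no summit, and the only one of replicate 2 was 34 bp downstream (rank 20849). The SF1 gene sfa-1 had no pooled candidate at its 5' end. All 3 sftb- genes had one, with 23 at sftb-2, 14.4 at sftb-1 and 10.3 at sftb-6. The sftb-1 summit was 493 bp upstream. In that window replicate 1 had no summit, and the only one of replicate 2 was 115 bp downstream (rank 28736). Replicate 1 also had none near the 5' end of sftb-6. For sftb-2 the replicates ranked the summit far apart, 20750 in replicate 1 and 2330 in replicate 2.

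The PRP genes, named after yeast pre-mRNA processing factors, had candidates at a smaller share than the rest of the 59. Of 13, 6 had a pooled candidate (46.2%), against 43 of the other 46 genes (93.5%) and 28.6% of all protein-coding genes. These contrasts were seen after the values were known and were not tested. The only IDR summit was that of prp-40, a factor associated with the U1 particle, at 9521706 to 9522075 on chromosome III. It lay 184 bp upstream of prp-40 and 431 bp upstream of clu-1 on the other strand (signal 46.1), with signal 16.9 (rank 428) in replicate 1 and 27.4 (rank 697) in replicate 2. Next was prp-8, for the large protein at the catalytic centre of the spliceosome, at 313 bp upstream. Its signal of 30.7 was below the IDR list, yet its replicate summits were 3 bp apart at ranks 1551 and 1226. Below these stood prp-31 (17.6) and prp-21 (16.9), then prp-39 (8.93) and prp-3 (6.92). Replicate 2 had no summit near the 5' end of prp-21, and neither replicate had one near that of prp-3. The 3 genes of the 59 with no candidate near the 5' end in any list were all PRP genes, prp-4, prp-18 and prp-19.

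**Figure D3:**
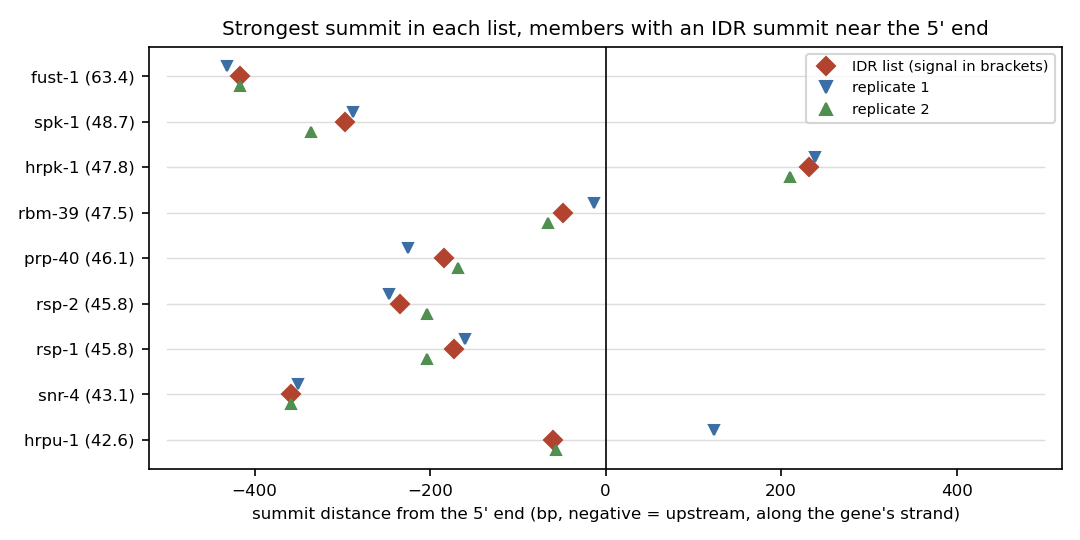
For the 9 genes with an IDR summit near the 5' end, the horizontal axis gives the distance (bp) of the strongest summit in the IDR list, replicate 1 and replicate 2 from the gene's 5' end, negative upstream. The 3 marks stand close together except at hrpu-1, where replicate 1 lies at 124 bp downstream, and only hrpk-1 has its IDR summit downstream.

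Among the 10 hnRNP genes 9 had a pooled candidate and 2 an IDR summit. The homologue of hnRNP K, hrpk-1, had its summit inside the gene, 232 bp downstream of the 5' end in the 279 bp intron 1 of 5 (signal 47.8), and was the only gene of the 9 with the IDR summit on that side. Both replicates placed it there, at 239 bp with signal 14.8 (rank 600) in replicate 1 and at 210 bp with signal 29.7 (rank 552) in replicate 2. The homologue of hnRNP U, hrpu-1, had its summit 60 bp upstream (signal 42.6, region 15039371 to 15039740 on chromosome IV), within the 64 bp that separate it from eef-1B.2, a translation elongation factor gene on the same strand. Replicate 2 had a summit 3 bp from it (signal 33.8, rank 383). Replicate 1 had none within 100 bp, and its strongest lay at 124 bp downstream, in intron 1 (signal 18.3, rank 346). A separate pooled candidate also stood in that intron at 154 bp (19.9), inside the non-coding RNA gene Y41E3.459. Replicate 2 had only 1 summit within 500 bp of this 5' end, the upstream one. No summit of replicate 1 in that window was within 100 bp of it, so the replicates did not share a position here. Lower in the list were hrpr-1 (24.7 at 493 bp upstream, at the edge of the window), hrpa-2 (22.4 at 460 bp downstream), hrpu-2 (20.7), hrpl-1 (16.8), hrpa-1 (14.9), hrpf-2 (6.33) and hrpk-2 (6.27). For hrpu-2 the replicate summits were 1 bp apart, the closest of all, at ranks 5120 and 3994. At hrpa-2 replicate 2 had a summit at 455 bp downstream (rank 1542), but the only one of replicate 1 was 413 bp upstream (rank 20221). Replicate 1 had no summit near the 5' ends of hrpl-1 and hrpf-2, and neither replicate had one at hrpk-2.

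The strongest region at any of the 59 genes was that of fust-1, a gene for an RNA-binding protein. It spanned 7151980 to 7152349 on chromosome II, and its summit was between genes, 416 bp upstream of fust-1 (signal 63.4, rank 139 of the IDR list). Replicate 1 gave signal 13.1 (rank 822) and replicate 2 gave 46 (rank 150), with summits 15 bp apart. No other protein-coding 5' end was within 500 bp of it, as was also the case at rbm-39, snr-4, hrpk-1 and hrpu-1.

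All 13 RBM genes, for proteins with RNA recognition motifs, had a pooled candidate, with signals of 6.5 to 47.5. The IDR summit at a 5' end belonged to rbm-39, the homologue of human RBM39, and lay 49 bp upstream in the 121 bp between it and atg-3 on the same strand (1012390 to 1012759 on chromosome IV, signal 47.5). It had signal 14.9 (rank 582) in replicate 1 and 38.7 (rank 241) in replicate 2. Just under the IDR list stood rbm-7, with signal 33.5 at 134 bp upstream, which replicate 2 ranked 615 and whose matching summit in replicate 1 ranked 19207. Other RBM genes included rbm-25 (22.3), rbm-26 (19.4), rbm-17 (17.5), rbm-42 (16.4) and rbm-5 (11.2). At rbm-25, rbm-42 and rbm-5 both replicates had a summit within 100 bp of each other, and replicate 1 ranked it between 18424 and 23736, in the weaker 50% of its list.

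How often the replicates placed a summit at the same point was then counted. Both replicate lists had a summit within 500 bp of the 5' end at 33 of the 59 genes (55.9%, interval 43.3 to 67.8), against 17% of all genes. At 21 genes these summits were at most 100 bp apart (35.6%, interval 24.6 to 48.3), against 9.44% of all genes. The gap between paired summits had a median of 35 bp and ran from 1 to 63 bp. Of the 9 genes with an IDR summit 8 were paired, hrpu-1 being the exception, and of the other 50 genes 13 were. The IDR list is made from both replicates, so that difference follows in part from how it is built. For 9 of the 21 genes both summits ranked in the strongest 10% of their own list, namely the 8 paired genes with an IDR summit and prp-8. The matching share of paired genes over the whole annotation was not counted.

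**Figure D4:**
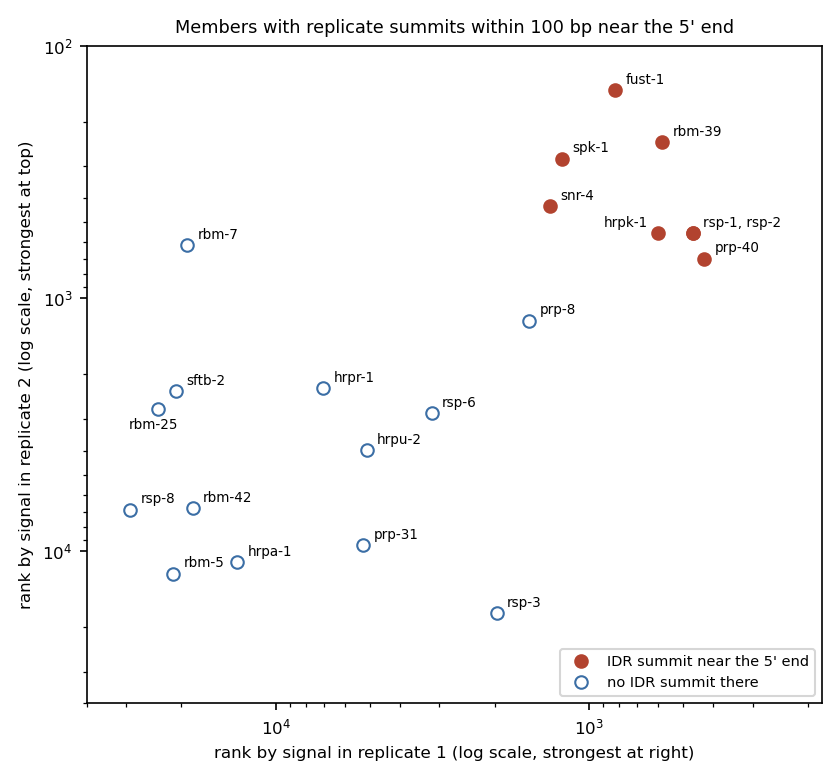
Each of 21 points is a gene whose replicate summits near the 5' end lie within 100 bp of each other, placed by the rank of the summit in replicate 1 (horizontal) and replicate 2 (vertical) on log scales with the strongest at the upper right. The 8 genes with an IDR summit, 2 of them at 1 shared point, group at ranks 428 to 1332 and 150 to 697, and rbm-7, sftb-2, rbm-25 and rsp-3 are among those ranked far apart by the replicates.

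Summits lay mainly upstream of the 59 genes. The strongest pooled summit was upstream at 43 of 49 genes (87.8%), against 65.6% of the 5719 protein-coding genes with one, and the median position was 174 bp upstream, against 118 bp upstream. In replicate 1 the upstream share was 72.1% against 60.4%, and in replicate 2 84.1% against 64.1%. Signals of the strongest pooled summits had a median of 16.7 at the 49 genes (5.80 to 63.4), against 11.6 over the 5719. The median was 4.72 against 4.12 in replicate 1, and 14.4 against 9.45 in replicate 2. In the pooled list 18 of the 49 were in the strongest 10% (36.7%), against 20.7% of the 5719 genes.

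Candidates were found in every layout of neighbouring genes. The next protein-coding gene upstream was on the other strand, facing away, for 36 of the 59 genes (61%, against 46.2% of all genes), and 28 of these had a pooled candidate and 4 an IDR summit. Of 17 genes with a same-strand neighbour less than 500 bp away 15 had a candidate and 3 an IDR summit, and of 6 with a longer same-strand gap 6 had a candidate and 2 an IDR summit. Among all genes the pooled shares in these layouts were 28.8%, 34.8% and 24.5%, and the IDR shares 2.26%, 1.92% and 0.814%. By chromosome, 15 of the 59 genes were on III (25.4%, against 13.2% of all genes) and 6 on V (10.2%, against 25%). Only 1, hrpa-2, was on X (1.69%, against 13.7%).

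Intron counts stood closer to those of all genes. A pooled candidate lay in an intron of 20 (33.9%, interval 23.1 to 46.6), against 23.4% of all genes, and a candidate of replicate 1 or of replicate 2 in 23 each (39%), against 24.5% and 24.1%. Per length of intron the pooled list had 41.4 summits per 100 kb in the 59 genes, 48 in all, against 33.4 per 100 kb in all protein-coding genes. Of the 48, 7 lay within 500 bp of the 5' end and were also counted there, against 1212 of 11552 over all genes. They include those of hrpa-1 (156 bp) and rbm-22 (170 bp). Further than 500 bp from the 5' end, 15 of the 59 genes had a pooled intron candidate. The share of all genes under that limit was not counted, so this number has no background beside it. IDR summits were in introns of 2 genes (3.39%, interval 0.935 to 11.5), against 0.686% of all genes. The summit in hrpk-1 is the one described above, close to its 5' end. That in rbm-34 lay 1366 bp downstream of the 5' end, in the 284 bp intron 2 of 2, at 12086601 to 12086970 on chromosome IV (signal 38.7). It was inside F11A10.9, a 120 bp small nucleolar RNA gene on the same strand, 77 bp from that gene's 5' end. Replicate 1 gave signal 9.25 (rank 2087) and replicate 2 gave 28.6 (rank 626), with summits 1 bp and 18 bp from the IDR summit. At its own 5' end rbm-34 had a candidate of signal 11.5.

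Other intron candidates were below the IDR list, and 14 of the 20 genes, hrpk-1 and rbm-34 included, had an intron candidate in the stronger 50% of the pooled list. The matching share over all genes was not counted, so it is not known whether 14 of 20 is high. After hrpu-1 and spk-1 the strongest were in prp-6 (13.9), hrpf-1 (12.7), hrpa-1 (12.6), hrpu-2 (12.5) and rbm-12 (12.5), followed further down by rbm-22 (11.4) and uaf-1 (9.35), against a median of 9.48 over the pooled list. At rbm-12, replicate 1 also had an intron summit of signal 14 at rank 688, 2606 bp downstream of the 5' end, and the strongest intron summit of replicate 2 was elsewhere, at 2202 bp (rank 4493). The 21042 bp gene hrpu-2 held 12 of the 48 pooled intron summits. Replicate intron summits within 100 bp of each other were found in 8 genes (13.6%, interval 7.03 to 24.5, against 6.13% of all genes), namely hrpa-1, hrpf-1, hrpk-1, hrpr-1, hrpu-2, rbm-34, rsp-8 and spk-1.

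Other genes for splicing and RNA-binding proteins, outside these names, are given from a list of 5 groups. Of 148 genes listed, 138 matched the annotation, and IDR summits stood near the 5' ends of 3 of these (2.17%, against 1.72% of all genes), a share near the background. A pooled candidate was at 61 (44.2%, against 28.6%). By group, pooled candidates were at 13 of 18 regulators of alternative splicing, 18 of 38 helicases and core spliceosome proteins, 9 of 22 Lsm and RNP-family proteins, 17 of 43 poly(A), cleavage and translation-linked proteins and 4 of 17 cap binding, exon junction and export proteins. The 3 genes with IDR summits were puf-9, for a Pumilio-family protein (295 bp upstream, signal 118), lsm-6, for a protein of the ring on the U6 RNA (107 bp upstream, 54.3), and rsr-1, for an SR-related protein (476 bp upstream, 39.2). Introns of 3 more held one (2.17%, against 0.686% of all genes), larp-1 (52.2), cfim-2 (48.2) and lin-28 (40).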

How the data were processed

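ChIP-seq regions from 2 biological replicates of 1 group were used. Per the labels, lists exist for the ce11 and ce10 builds and fragments of 150 to 350 bp were selected; ce11 lists were used, with no conversion. Per the deposited inventory text, 1 list was derived from each replicate's alignments and 1 from both, each with a control, and the IDR list from these. The peak caller, aligner and IDR threshold are not given in the sources used here. The deposited signal values are the authors' enrichment measure of undefined scale. The deposited −log10 q-values had a ceiling (3.15 in the pooled list, at 2113 regions), so signal was used for ranking.

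Summits (region start plus offset) were compared with Ensembl release 115 genes of WBcel235. A gene counted when a summit was within 500 bp of its 5' end, or inside it and in no exon of its own. No region extended past a chromosome end, and 98.5% of 737 introns of the 59 genes began GT and ended AG in the RefSeq sequence, which checks the match of builds. Counting was tested on 200 planted summits, with 0 errors. No set test or p-value was computed. Depth is unknown. The labels call the samples biological replicates but name no separate cultures, so what the replicate spread covers is not known.

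Members, lists and words were chosen with earlier results of these data known. Named were all genes with an IDR summit or paired replicate summits, the next 5 by pooled signal at 5' ends and in introns, group leaders, and listed genes with an IDR summit. Alternatives were a distance of 250 bp or 1000 bp, 5' ends of all transcripts, nearest genes only, whole regions, the stronger 50% of each list, a 50 bp pairing limit, other intron rules and each replicate alone. Software was Python 3.11.15 with matplotlib 3.10.9, scipy 1.17.1, pandas 2.3.3 and numpy 2.4.6.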

Additional observations from a re-analysis of the deposited data

How the results depend on the processing

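Of 38 alternatives over 6 counts of genes, 32 gave a count within 1.5 times the reported one. Some of these stood at that limit, such as 6 genes with an IDR summit and 14 with paired summits within 250 bp. With each summit given to its nearest 5' end only, the IDR count was 7 and the pooled count 39. Under that rule 24 genes had a summit in both replicate lists and 15 had paired summits, in place of 33 and 21. The 9 genes with an IDR summit near the 5' end became 4 with the stronger 50% of the IDR list, while the 2 with one in an intron became 1 there and 1 without summits within 500 bp of any protein-coding 5' end; these counts are smaller by construction. Within 250 bp the genes with a pooled candidate numbered 29, in place of 49, and those with a summit in both replicate lists 17, in place of 33. That count was 20 in the stronger 50% of each replicate list. Using the list of 1 replicate in place of the pooled list gave 43 to 44 genes for candidates at 5' ends and 23 to 23 in introns. A single replicate has no IDR list, and the counts given in its place are those of its 704 strongest regions. These were 6 to 10 genes at 5' ends and 2 to 3 in introns. They are not IDR summits, and in replicate 2 they took in rbm-7 (rank 615), which had no IDR summit. Counting each region once, an alternative added after seeing the data, gave 8 and 47 for the IDR and pooled counts at 5' ends, taking the strongest region of each gene. No paired analysis was possible because there is 1 group. Read depth is unknown, so the absence of a summit does not show absence of binding.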
